A study of Rattus norvegicus with 9 samples.

Results

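Osteopontin (*Spp1*), fibronectin (*Fn1*), biglycan (*Bgn*) and annexin A5 (*Anxa5*) are the 4 genes described here, out of the 84 target genes of a rat osteogenesis PCR array. They were chosen by gene symbol as matrix and matrix-associated genes that do not encode a collagen. The array had 96 wells, with 5 housekeeping genes and 7 control wells beside the target genes. Tissue came from the patellar enthesis, where the patellar tendon inserts into bone, of adult male Sprague Dawley rats.

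The 9 groups were native enthesis and 4 treatments, each examined 4 and 12 weeks after surgery. S-MT and S-AT were defects filled with a biphasic scaffold of silk fibroin, a protein of silk, whose bone-like and tendon-like ends met in a transition that was mixed in S-MT and abrupt in S-AT. ED was an empty defect with the tendon sutured back to bone, and TC was a transversal cut through the tendon, labelled as a tendon-to-tendon suture. Native samples received no treatment and came from the healthy enthesis of the rats, so the native tissue belonged to animals that had been operated on. Its label gives 4 weeks. Native tissue served as a single group for both time points. The design took 8 samples per group and time point, 72 in all. Each gene nevertheless has only 1 deposited value in each group, and neither the labels nor the methods state if that value is 1 animal, an average or a pool. No value below therefore has an error, no comparison has a test, and no pair of groups that follow each other in an order can be told apart by their spread.

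Osteopontin is a secreted phosphoprotein that binds integrins and mineral and is made by macrophages, osteoclasts, osteoblasts and other cells. Fibronectin is an adhesive glycoprotein that cells assemble into fibrils through integrins, an early scaffold of healing tissue. Biglycan is a small proteoglycan with leucine-rich repeats that binds collagen fibrils and is abundant in tendon, cartilage and bone. Annexin A5 is a calcium-dependent phospholipid-binding protein, found inside cells and in the matrix vesicles from which mineral forms.

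What each well yields is a threshold cycle (Ct), the PCR cycle at which fluorescence passes a set limit, and less template gives a later Ct. Wells of target genes without a Ct, or with one over 35, were given the cut-off value of 35. Housekeeping genes were not capped, and of these only *Hprt1* in TC at 12 weeks, with a Ct of 36.2, was over 35. The normalized level is 2 to the power of the mean Ct of *Ldha* and *Rplp1* minus the Ct of the gene, so that a level of 1 equals the mean of the reference genes. A fold between groups is the ratio of their levels, and it is a bound, written as "at least", where one of the groups was over the cut-off. Of the 36 values of the 4 genes, 34 were within the cut-off. Levels are compared between groups and not between genes, since the assays of different genes can differ in efficiency. In whole tissue, fewer cells of a type and less RNA per cell cannot be told apart.

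Some groups stood apart before any fold was taken. The mean Ct of the reference genes ran from 25.7 in S-AT at 12 weeks to 30.0 in native tissue, and *Ldha* lagged *Rplp1* by 2.26 cycles in ED at 12 weeks but by 5.69 in ED and 5.38 in TC at 4 weeks. From 20 target genes in native tissue to 83 in ED at 12 weeks were within the cut-off. The positive PCR control wells of S-AT at 12 weeks had a mean Ct of 26.0, against 19.1 to 21.9 in the other groups. In the well that the array's maker reserves for genomic DNA, the Ct was 29.2 in ED and 30.4 in TC at 12 weeks, the earliest of the 9 groups. As for the tissue label, 3 of 4 tendon and fibroblast matrix genes (*Col1a1*, *Col1a2* and *Col3a1*, not *Col14a1*), 2 of 4 cartilage genes and 0 of 7 osteoblast genes were within the cut-off in native tissue.

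Osteopontin was undetermined in native tissue and was measured in all 8 operated groups. At 4 weeks its Ct was 25.0 in both S-MT and S-AT, and at 12 weeks it was 23.7 for S-MT and 24.3 for S-AT. In ED it was 28.6 at 4 weeks and 28.2 at 12 weeks, and in TC it was 31.4 and 31.7. The 4 scaffold values were all earlier than the 4 values without a scaffold. This order of raw Ct was not particular to *Spp1*. The housekeeping genes *Actb*, *B2m* and *Hprt1* had it too, while *Ldha* and *Rplp1* did not. Target genes that had it include *Serpinh1* and, narrowly, *Mmp2* (32.05 in S-AT at 12 weeks against 32.11 in ED at 4 weeks), and there may be more. Its share over all target genes was not counted. As normalized levels, *Spp1* stood at 3.62 in S-MT and 3.61 in S-AT at 4 weeks, and at 6.67 and 2.71 at 12 weeks. ED gave 0.762 at 4 weeks and 0.255 at 12 weeks, TC gave 0.326 and 0.256, and native tissue was at or below 0.0318. The order from high to low was thus S-MT at 12 weeks, S-MT and S-AT at 4 weeks, S-AT at 12 weeks, ED and TC at 4 weeks, and then TC and ED at 12 weeks, which were almost level.

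Fibronectin was measured in all 9 groups. It was 28.2 in native tissue, 24.6 in S-MT and 24.7 in S-AT at 4 weeks, and 23.7 in S-MT and 27.8 in S-AT at 12 weeks. In ED it was 26.6 at 4 weeks and 28.1 at 12 weeks, and in TC it was 30.1 and 30.7. S-AT was close to S-MT at 4 weeks and the Ct of S-MT minus that of S-AT was -4.10 cycles at 12 weeks. As normalized levels, *Fn1* was at 3.60 in native tissue, 4.76 in S-MT, 4.65 in S-AT, 3.02 in ED and 0.818 in TC at 4 weeks. At 12 weeks it was at 6.47 in S-MT, 0.239 in S-AT, 0.273 in ED and 0.531 in TC. With these reference genes, the native level lay below those of S-MT at both times and of S-AT at 4 weeks and above the other 5.

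Biglycan was undetermined in S-AT at 12 weeks. Its Ct was 32.5 in native tissue, 27.8 in S-MT, 27.8 in S-AT, 27.9 in ED and 30.3 in TC at 4 weeks. At 12 weeks it was 26.7 in S-MT, 28.8 in ED and 31.2 in TC. The normalized level of *Bgn* was highest in ED at 4 weeks, at 1.21. It was 0.810 in S-MT at 12 weeks, 0.718 in TC, 0.542 in S-AT and 0.502 in S-MT at 4 weeks, and 0.376 in TC at 12 weeks. Native tissue followed at 0.181 and ED at 12 weeks at 0.167, and S-AT at 12 weeks was at or below 0.00162. Biglycan was the only one of the 4 whose highest level, with these reference genes, was not in S-MT at 12 weeks.

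Annexin A5 was likewise measured throughout. Its Ct was 32.4 in native tissue, 27.0 in S-MT, 27.3 in S-AT, 29.0 in ED and 31.3 in TC at 4 weeks. At 12 weeks it was 26.2 in S-MT, 30.7 in S-AT, 29.0 in ED and 32.5 in TC. Its normalized level was 0.197 in native tissue, and 0.857 in S-MT, 0.779 in S-AT, 0.561 in ED and 0.339 in TC at 4 weeks. At 12 weeks *Anxa5* was at 1.17 in S-MT, 0.0324 in S-AT, 0.144 in ED and 0.147 in TC. With these reference genes, the 4 operated groups at 4 weeks and S-MT at 12 weeks thus lay above native tissue. The other 3 groups at 12 weeks lay below it.

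**Figure D1:**
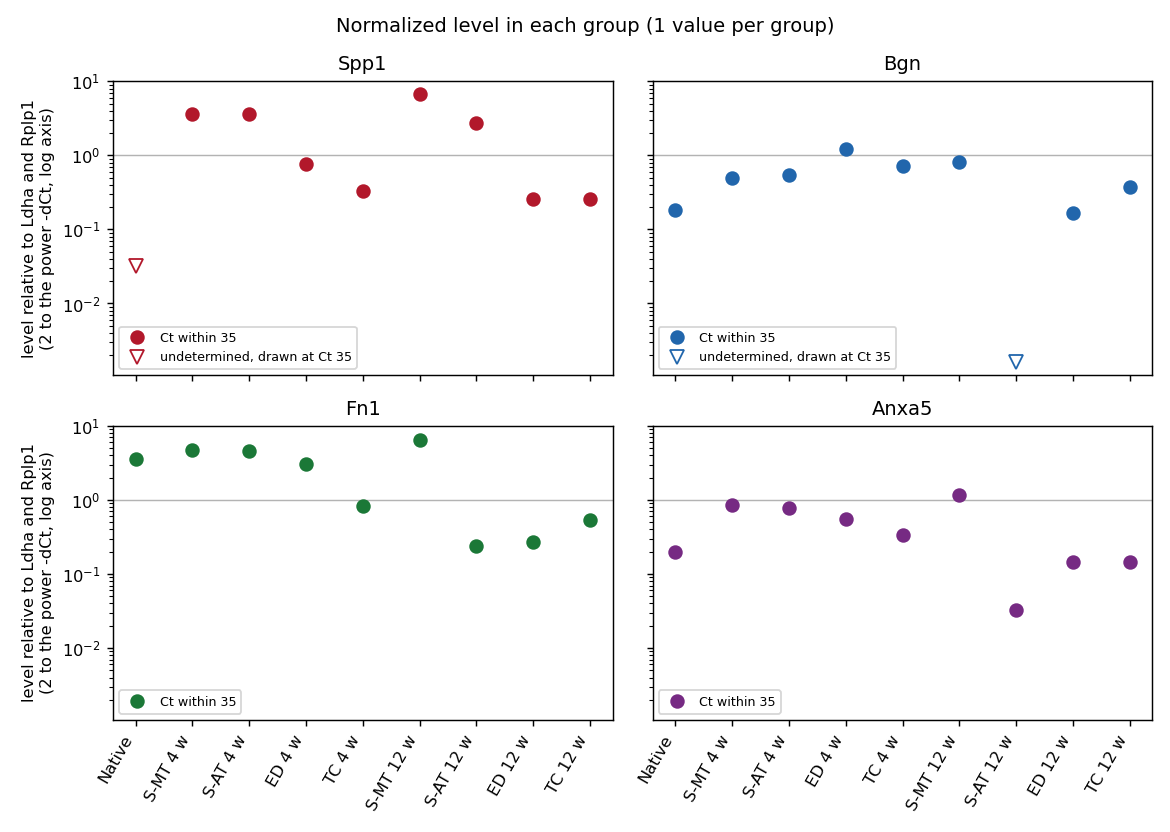
Normalized level of each of the 4 genes (log axis, 2 to the power of the mean Ct of the reference genes minus the Ct of the gene) in the 9 groups, with 1 value per point and no error bars since there are no replicates. Open triangles mark a gene that was undetermined, placed at the level of the cut-off, which applies to *Spp1* in native tissue (0.0318) and *Bgn* in S-AT at 12 weeks (0.00162).

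Between the highest and lowest operated group, *Spp1* ranged 26.2-fold and *Fn1* 27.1-fold over 8 groups, *Anxa5* 36.0-fold over 8 and *Bgn* 7.27-fold over the 7 in which it was measured. The range of *Bgn* leaves out S-AT at 12 weeks, its lowest group, where it was at or below 0.00162, so that with this bound its range would be the widest of the 4. With *Ldha* and *Rplp1*, the lowest operated group was S-AT at 12 weeks for *Fn1* and *Anxa5* too, and ED at 12 weeks for *Spp1*. Other references moved this in part. For *Fn1* it was ED at 12 weeks with *Ldha* alone, and for both *Fn1* and *Anxa5* with the median of other target genes. For *Spp1* it was TC at 4 weeks with *Rplp1* alone and with all 5 housekeeping genes. Which group was highest also depended in part on the reference. S-MT at 12 weeks was highest for *Spp1* under 4 of 5 references and for *Fn1* and *Anxa5* under 3, and ED at 4 weeks was highest for *Bgn* under 4, with S-MT at 12 weeks ahead under *Rplp1* alone.

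The 250 bases before the start of *Spp1* and of *Anxa5* are shown because these genes went opposite ways from native tissue in S-AT at 12 weeks, and because the promoter table used here holds these 2 of the 4 genes. They are RefSeq sequences of the rat assembly GRCr8, on the minus strand in both cases, at chr14:5619805-5620054 for *Spp1* and chr2:121272697-121272946 for *Anxa5*. They are written in the direction of transcription, with matches to a searched motif in capitals.
Spp1: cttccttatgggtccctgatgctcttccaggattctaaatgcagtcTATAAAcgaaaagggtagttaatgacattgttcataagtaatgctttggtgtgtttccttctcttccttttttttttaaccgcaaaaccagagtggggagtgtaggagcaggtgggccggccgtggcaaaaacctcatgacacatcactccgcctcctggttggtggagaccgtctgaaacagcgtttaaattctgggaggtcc
Anxa5: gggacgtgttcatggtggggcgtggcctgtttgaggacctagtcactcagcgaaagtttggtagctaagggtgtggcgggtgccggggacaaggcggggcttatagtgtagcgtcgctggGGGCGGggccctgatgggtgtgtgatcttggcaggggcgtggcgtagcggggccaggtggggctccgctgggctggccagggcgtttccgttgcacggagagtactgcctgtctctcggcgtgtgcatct
The motifs searched on both strands were the TATA box TATAAA, the CCAAT box as spelled, the GC box GGGCGG, the AP-1 motif TGANTCA and the RUNX motif ACCACA. The *Spp1* window held TATAAA, 204 bases before the start, and the *Anxa5* window held GGGCGG, 130 bases before it. Among 33469 rat promoter windows of the same length, the TATA box letters were in 12.9%, those of the GC box in 30.5%, of the CCAAT box in 34.0%, of the AP-1 motif in 6.34% and of the RUNX motif in 14.5%. The *Spp1* window had a GC content of 46.8% and 7 CpG dinucleotides and that of *Anxa5* 65.2% and 18, beside medians of 51.2% and 5 over all windows. The array did not measure binding at any promoter, and a match describes letters only.

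The comparison with native tissue asks how far each operated enthesis stood from the healthy one. Osteopontin was higher than in native tissue in all 8 operated groups, by at least 8.02-fold, and fibronectin was past the 2-fold limit in the lower direction in 4 groups and in the higher direction in 0. The 4 genes gave 32 folds over native tissue, of which 18 were at least 2-fold higher and 6 at least 2-fold lower. These 8 comparisons share the native value, so a native value that is off would move all of them.

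At 4 weeks, *Spp1* was at least 114-fold higher than native in S-MT, at least 114-fold in S-AT, at least 24.0-fold in ED and at least 10.3-fold in TC. Biglycan was 2.78-fold higher in S-MT, 3.00-fold in S-AT, 6.69-fold in ED and 3.97-fold in TC. Annexin A5 was 4.35-fold higher in S-MT, 3.95-fold in S-AT and 2.84-fold in ED, while its ratio in TC was 1.72. Fibronectin stayed within 2-fold in S-MT, S-AT and ED, with ratios of 1.32, 1.29 and 0.839, and was 4.40-fold lower in TC. So 3 of the 4 genes were at least 2-fold higher in S-MT, beside 29.4% of the 51 target genes with a fold, and 3 in S-AT, beside 25.0% of 56 (3.57% were lower). In ED 3 were higher, beside 33.3% of 42, and in TC 2 were higher and 1 lower, beside 22.2% higher and 22.2% lower of 27. The median log2 fold of the 4 genes was 1.80 in S-MT, 1.78 in S-AT, 2.12 in ED and 1.39 in TC, and that of all target genes with a fold was -0.15, -0.52, -0.22 and 0.31. Those medians include genes over the cut-off in native tissue, and over genes measured in both groups they were 0.80, 0.59, 1.20 and 0.50 for all target genes and 1.47, 1.58, 1.51 and 0.78 for the 3 of the 4 genes that were, a smaller contrast.

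At 12 weeks the treatments spread apart. In S-MT, *Spp1* was at least 210.0-fold, *Anxa5* 5.92-fold and *Bgn* 4.48-fold higher than native and *Fn1* had a ratio of 1.80, so that 3 of 4 genes were past the limit beside 30.3% of 66. In S-AT, *Spp1* was at least 85.3-fold higher, while *Bgn* was at least 111-fold, *Fn1* 15.1-fold and *Anxa5* 6.08-fold lower. That is 1 of 4 higher, beside 4.44% of 45, and 3 lower, beside 35.6%. In ED, *Spp1* was at least 8.02-fold higher and *Fn1* 13.2-fold lower, and *Bgn* and *Anxa5* had ratios of 0.921 and 0.728. In TC, *Spp1* was at least 8.07-fold and *Bgn* 2.08-fold higher, *Fn1* was 6.78-fold lower, and *Anxa5* had a ratio of 0.747. The 1 gene higher and 1 lower in ED stand beside 41.0% and 4.82% of 83 genes, and the 2 higher and 1 lower in TC beside 29.4% and 5.88% of 51.

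The choice of reference moved these folds, because *Ldha*, *Rplp1* and the target genes did not run in parallel. Over 5 choices (*Ldha* with *Rplp1*, either of them alone, the 5 housekeeping genes together, and the median of 14 other target genes), *Spp1* was at least 2-fold higher than native under all 5 in every operated group. Fibronectin was at least 2-fold lower under all 5 in S-AT, ED and TC at 12 weeks and under 4 in TC at 4 weeks. Fibronectin in ED at 4 weeks had no stable direction, with log2 folds from -1.58 to 1.07. Its direction also turned in S-MT (-0.88 to 0.46) and S-AT (-0.62 to 0.40) at 4 weeks and in S-MT at 12 weeks (-0.76 to 0.88). With the median of other target genes, native tissue had the highest *Fn1* level. *Anxa5* turned in TC at 4 weeks (-0.39 to 1.95) and in ED (-0.92 to 0.58) and TC (-0.89 to 1.06) at 12 weeks, and *Bgn* in ED at 12 weeks (-0.58 to 0.91). Annexin A5 in S-MT at 4 weeks ran from 0.84 to 2.18 and *Bgn* from 0.20 to 1.53, past the limit under 4 of the 5.

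**Figure D2:**
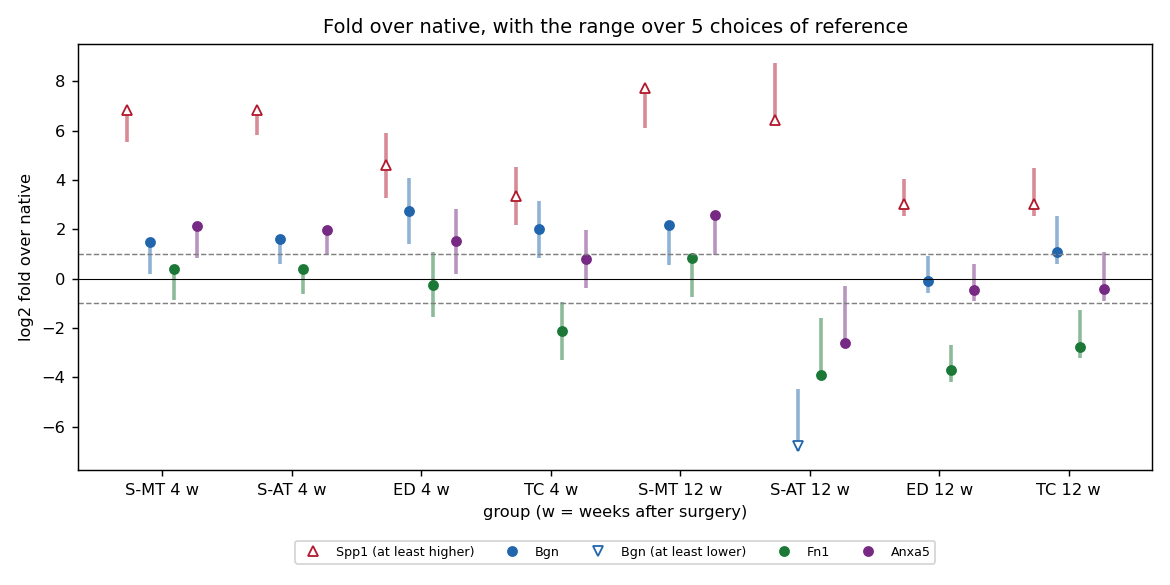
Log2 fold over native tissue of each gene in the 8 operated groups, as points, with lines from the lowest to the highest value over 5 choices of reference; the lines are not errors. Upward triangles are lower bounds on an increase (*Spp1*, over the cut-off in native tissue), the downward triangle is a bound on a decrease (*Bgn* in S-AT at 12 weeks), and dashed lines mark 2-fold.

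S-MT and S-AT differ in the transition of the scaffold, which is the variable of the study. At 4 weeks the 4 genes were almost level between them. The log2 fold of S-MT over S-AT was 0.00 for *Spp1*, 0.03 for *Fn1*, -0.11 for *Bgn* and 0.14 for *Anxa5*, and 0 of the 4 were past 2-fold in either direction, beside 1.75% higher and 5.26% lower of 57 target genes. At 12 weeks all 4 were higher in S-MT, *Bgn* by at least 499-fold, *Anxa5* by 36.0-fold, *Fn1* by 27.1-fold and *Spp1* by 2.46-fold. Of all 66 target genes with a fold, 90.9% were higher in S-MT and 0 were lower, with a median log2 fold of 2.60 beside 4.97 for the 4 genes, so their common direction is that of nearly the whole array. Over genes measured in both groups the medians were 3.30 and 4.76. Under the median of other target genes as reference, *Spp1* turned to a log2 fold of -2.61, lower in S-MT, *Fn1* came inside the 2-fold limit at 0.85 and *Anxa5* was at 1.26.

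The order of the 4 genes in that difference followed their places on the plate. Wells of *Bgn* and *Anxa5* lay in row A, that of *Fn1* in row D and that of *Spp1* in row F, and both reference genes lay in row H. From 4 to 12 weeks in S-AT, the Ct of *Anxa5* became 3.43 cycles and that of *Fn1* 3.13 cycles later, while that of *Spp1* changed by -0.75, to an earlier cycle. Over the 16 other target genes of rows A to D measured at both times the median change was 2.91 cycles later, from 1.29 to 4.59. Over the 6 of row E it was 1.98, and over the 18 of rows F and G it was -0.53, from -1.53 to 0.98. The same rows in S-MT had medians of -1.48, -1.40 and -1.06, and the 4 genes there lay between -1.30 and -0.86.

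Within their own row, *Fn1* in S-AT changed by 3.13 cycles and its 3 neighbours by a median of 3.10, and *Anxa5* by 3.43 and its 1 neighbour by 2.93. *Spp1* changed by -0.75 and its 7 neighbours in row F by a median of 0.11. The loss of *Bgn* stood out more. Of the 12 wells of row A, 8 were undetermined in S-AT at 12 weeks, and of the other 7, 1 was undetermined at 4 weeks too and the earliest had a Ct of 34.0 there. Of the 44 target genes with a Ct under 34 in S-AT at 4 weeks, *Bgn* was the only 1 that was undetermined at 12 weeks. The part of the plate position in these differences was not tested. Without S-AT at 12 weeks, 17 folds over native tissue stayed at least 2-fold higher and 3 at least 2-fold lower.

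**Figure D3:**
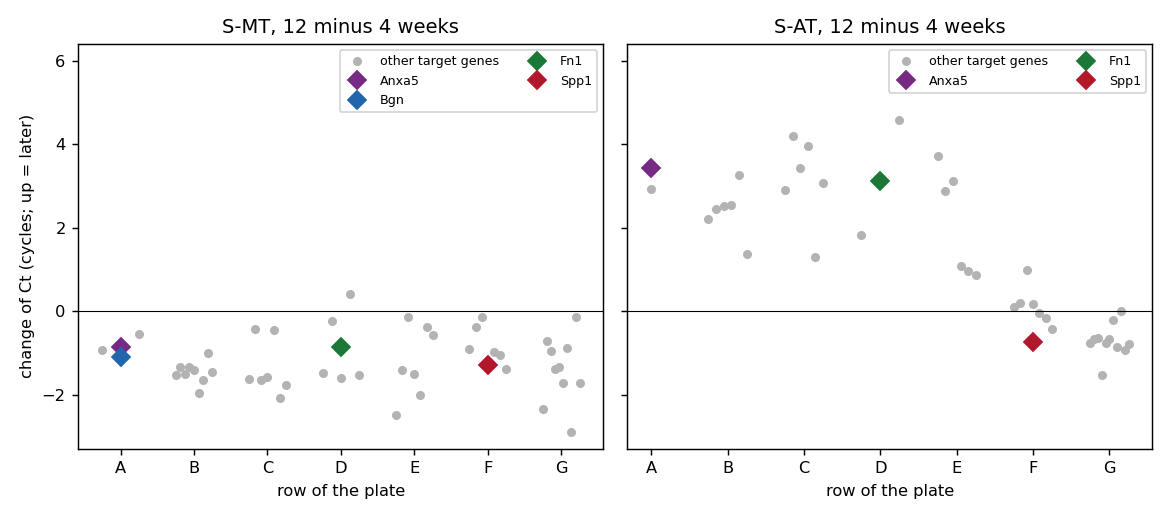
Change of Ct from 4 to 12 weeks (cycles, upward means later and less template) by row of the plate, for S-MT on the left and S-AT on the right. Grey points are the other target genes measured at both times and diamonds are the 4 genes; *Bgn* has no diamond in S-AT because it was undetermined at 12 weeks. In S-AT, rows A to D lie at 1.29 to 4.59 cycles and rows F and G at -1.53 to 0.98.

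ED and TC are the controls without a scaffold. At 4 weeks, *Spp1* was 4.74-fold higher in S-MT than in ED and 4.74-fold higher in S-AT than in ED, while *Bgn* was 2.41-fold lower in S-MT and 2.23-fold lower in S-AT. The ratios of *Fn1* (1.57 and 1.54) and *Anxa5* (1.53 and 1.39) were within 2-fold. Thus 1 of 4 genes was higher and 1 lower in each scaffold group, beside 22.6% and 17.0% of 53 target genes for S-MT and 21.1% and 10.5% of 57 for S-AT. The lower *Bgn* rests on the reference, since with *Rplp1* alone its log2 fold over ED was 0.00099 for S-MT and 0.14 for S-AT.

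At 12 weeks all 4 genes were higher in S-MT than in ED, *Spp1* by 26.2-fold, *Fn1* by 23.7-fold, *Anxa5* by 8.14-fold and *Bgn* by 4.86-fold. Over the 83 target genes with a fold, 22.9% were higher and 59.0% lower in S-MT. The 4 genes thus went against the larger share of the array, but this was not particular to them. Of the 9 collagens 7 were higher and 1 lower, with a median log2 fold of 1.32, and *Itgav* and *Itgb1* were higher too. Only 19 target genes of ED at 12 weeks came earlier than its genomic DNA control well. The part of that well's signal in the larger share was not tested. The median log2 fold of the 4 genes was 3.79, beside -1.60 for all target genes (-0.97 over those measured in both groups). The direction of all 4 held under the 5 references. The medians of their rows went the other way for *Spp1* and *Fn1*. The Ct in S-MT minus that in ED was -4.54 cycles for *Spp1* and -4.40 for *Fn1*, with medians of 1.64 and 2.41 over the 8 and 7 other genes of their rows. Those other genes ran from -1.41 to 4.77 and from -0.13 to 3.25, so not every well of the row changed the other way. In S-AT against ED, *Spp1* was 10.6-fold higher, beside 2.41% of 83 target genes, *Bgn* at least 103-fold and *Anxa5* 4.43-fold lower, beside 88.0%, and *Fn1* had a ratio of 0.873.

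ED and TC differ in the injury. At 4 weeks, *Fn1* was 3.70-fold and *Spp1* 2.34-fold higher in ED than in TC, and *Bgn* and *Anxa5* had ratios of 1.68 and 1.65, so that 2 of 4 were past the limit, beside 28.6% higher and 2.38% lower of 42. At 12 weeks *Bgn* was 2.26-fold lower in ED, 1 of 4 beside 8.43% of 83 genes lower and 31.3% higher. *Fn1* was 1.94-fold lower, just inside the limit, and *Spp1* and *Anxa5* were level, with ratios of 0.994 and 0.975.

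From 4 to 12 weeks, 0 of the 16 folds were at least 2-fold higher and 8 were at least 2-fold lower. In S-MT all 4 genes were a little higher at 12 weeks, with ratios of 1.85 for *Spp1*, 1.61 for *Bgn*, 1.36 for *Fn1* and 1.36 for *Anxa5*, none past the limit, while 36.4% of 66 target genes were. In S-AT *Bgn* was at least 334-fold, *Anxa5* 24.0-fold and *Fn1* 19.5-fold lower at 12 weeks, 3 of 4 genes beside 75.4% of 57, and *Spp1* had a ratio of 0.751. In ED all 4 were lower, *Fn1* by 11.1-fold, *Bgn* by 7.27-fold, *Anxa5* by 3.91-fold and *Spp1* by 2.99-fold, beside 16.9% of 83 target genes lower and 67.5% higher. In TC *Anxa5* was 2.30-fold lower, beside 7.69% lower and 23.1% higher of 52, and the other 3 were 1.27-fold to 1.91-fold lower and within the limit. The Ct of *Anxa5* in ED was 29.0 at both times, while the mean reference Ct was 28.2 at 4 weeks and 26.2 at 12 weeks and the 2 neighbours of *Anxa5* in row A had a median change of -4.16 cycles. With *Rplp1* alone, *Spp1* in ED turned to a log2 fold of 0.14. With all 5 housekeeping genes as reference, all 4 genes in TC turned to higher at 12 weeks, with log2 folds of 1.40 for *Spp1*, 0.82 for *Bgn*, 1.13 for *Fn1* and 0.55 for *Anxa5*. The mean of the 5 includes *Hprt1*, which was over the cut-off in TC at 12 weeks (Ct 36.2) and was not capped, which raises these folds. With *Rplp1* alone all 4 were also above 0, from 0.037 to 0.89. With the median of other target genes *Spp1* in S-AT turned to 2.89.

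The genomic DNA control well bears on how much of a signal can be read as messenger RNA. At 12 weeks in TC the Ct of all 4 genes was later than that of the control well, the Ct of the well minus that of the gene being -0.24 cycles for *Fn1*, -0.74 for *Bgn*, -1.29 for *Spp1* and -2.09 for *Anxa5*. In ED at 12 weeks the genes were ahead of it by 0.139 cycles for *Anxa5*, 0.353 for *Bgn*, 0.967 for *Spp1* and 1.07 for *Fn1*. In the other 7 groups, every one of the 4 genes with a Ct was at least 2.46 cycles ahead, and up to 11.4 cycles for *Spp1* in S-AT at 12 weeks. Over all target genes, 6 in ED and 1 in TC at 12 weeks were at least 1 cycle ahead, against 16 to 42 in the other groups. The ED and TC levels at 12 weeks were thus near or under the signal of that well, and its part in them was not tested. Without these groups, 15 folds over native tissue were at least 2-fold higher and 4 at least 2-fold lower.

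**Figure D4:**
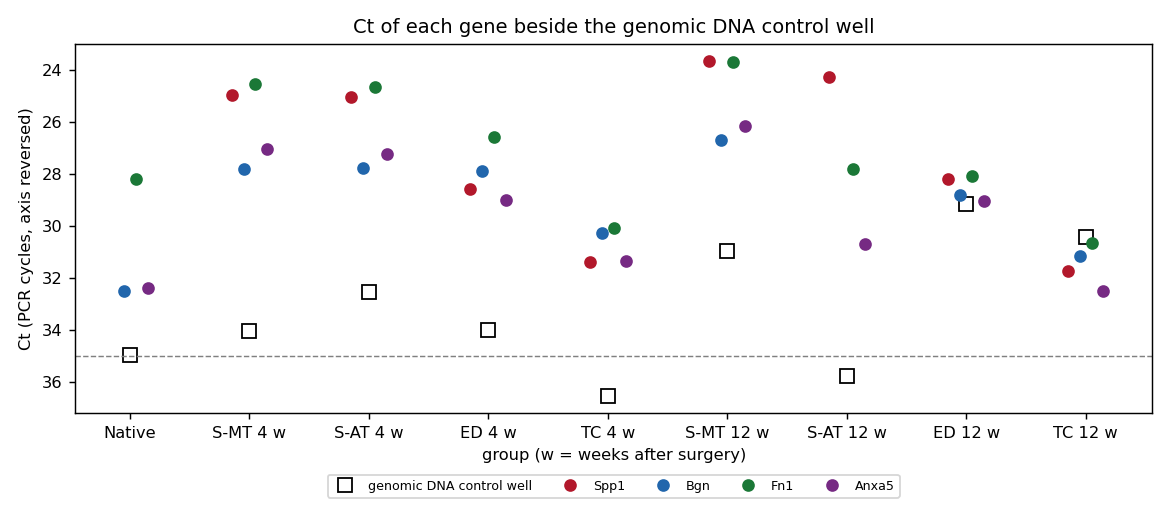
Ct (cycles, reversed axis, so that earlier is higher; 1 value per gene and group) of the 4 genes as coloured points and of the genomic DNA control well as an open square in each of the 9 groups, with the cut-off of 35 dashed; an undetermined gene has no point. The square lies within 1.07 cycles of all 4 genes in ED at 12 weeks and ahead of all 4 in TC at 12 weeks.

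Differences between the Ct of 2 genes in the same sample need no reference gene. *Fn1* and *Anxa5* kept the most even distance of the 6 pairs over the operated groups, with a standard deviation (SD) of 0.69 cycles. The SD was 2.03 for *Spp1* and *Anxa5*. For *Spp1* and *Bgn* it was 1.85 over the 7 groups with a Ct of both, which leaves out S-AT at 12 weeks, where *Bgn* was at least 10.7 cycles later, the widest gap of this pair. *Anxa5* was 2.43 to 2.88 cycles later than *Fn1* in both scaffold groups at both times and in ED at 4 weeks. It was 4.19 cycles later in native tissue, 0.93 in ED at 12 weeks, and 1.27 at 4 weeks and 1.85 at 12 weeks in TC.

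The distance between *Spp1* and *Bgn* also varied between groups. *Bgn* was 2.85 cycles later than *Spp1* in S-MT and 2.73 in S-AT at 4 weeks, and 3.04 in S-MT at 12 weeks. In ED the Ct of *Bgn* minus that of *Spp1* was -0.67 cycles at 4 weeks and 0.61 at 12 weeks, and in TC it was -1.14 and -0.55. In S-AT at 12 weeks *Bgn* was undetermined and at least 10.7 cycles later. With this bound, the values of the groups with and without a scaffold did not overlap. That was not particular to this pair. The same groups did not overlap for *Bgn* against *Fn1*, *Bgn* against *Anxa5* and *Spp1* against *Anxa5*, or, narrowly, for *Fn1* against *Anxa5*. Only *Spp1* against *Fn1* overlapped. The share over all pairs of target genes was not counted, so the lack of overlap cannot be read as a trait of the 4 genes. The Ct of *Fn1* minus that of *Spp1* at 4 weeks was -0.40 for S-MT and -0.37 for S-AT and 0.05 in S-MT at 12 weeks, but 3.51 in S-AT at 12 weeks and -1.99 in ED at 4 weeks. The Ct of *Fn1* minus that of *Bgn* was -4.32 in native tissue, -3.24 to -3.00 in S-MT at both times and S-AT at 4 weeks, and -1.32 to -0.19 in ED and TC.

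**Figure D5:**
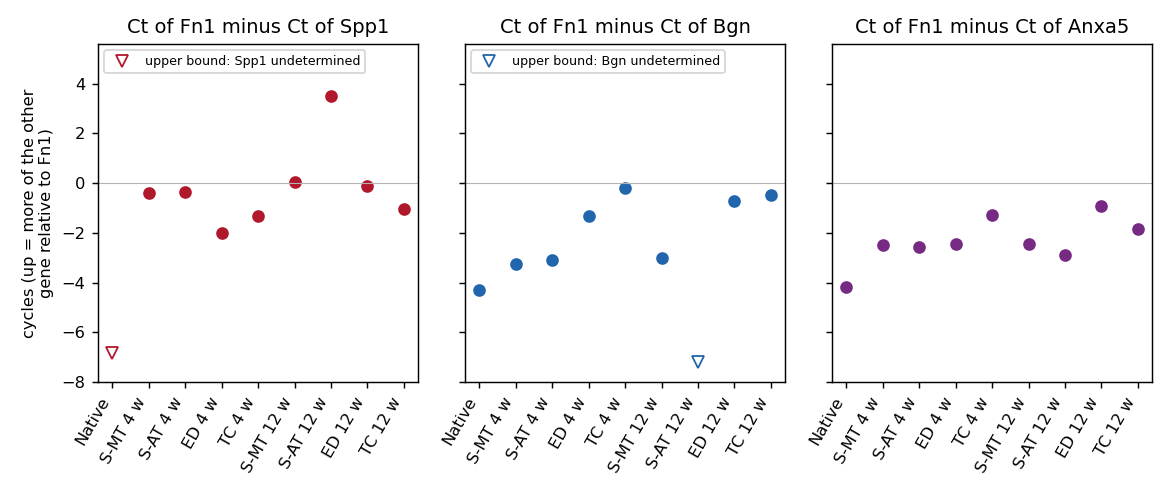
Ct of *Fn1* minus the Ct of *Spp1*, *Bgn* and *Anxa5* (cycles) in the 9 groups; upward means more of the other gene relative to *Fn1*. Open triangles are upper bounds where the other gene was undetermined, and *Anxa5* is the panel with the smallest spread over the operated groups.

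The target genes whose Ct moved most in step with each of the 4 over the operated groups were taken by the SD of the Ct difference. For *Anxa5* these were *Col1a2* (0.37 cycles), *Col1a1* (0.47) and *Col3a1* (0.58), which encode chains of the fibrillar collagens I and III. For *Fn1* they were the gelatinase gene *Mmp2* (0.54), *Col3a1* (0.54) and *Itgb1* (0.55), the integrin subunit beta 1. For *Bgn*, over the 7 groups with a Ct, they were the growth factor gene *Igf1* (0.70), *Col1a2* (0.70) and *Col1a1* (0.84). For *Spp1* they were *Serpinh1* (1.25), the collagen chaperone, *Mmp2* (1.46) and *Itgb1* (1.54). The medians over the 21 or 22 genes compared were 1.24 for *Anxa5*, 1.61 for *Fn1*, 1.33 for *Bgn* and 2.44 for *Spp1*. These values share the RNA input of each sample, which moves all genes of a sample together. Without S-AT at 12 weeks, the genes closest to *Spp1* were *Mmp2* (0.43), *Itgb1* (0.68) and *Fn1* (0.74). Without ED and TC at 12 weeks, 0 of the 3 genes closest to *Bgn* stayed among its closest 3. Of the 3 named for each other gene, 1 stayed for *Fn1*, 2 for *Spp1* and 2 for *Anxa5*.

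Of the integrin genes on the array, *Itgav* and *Itgb1* encode subunits of receptors for osteopontin and fibronectin. Both were at least 2-fold higher than native in S-MT and S-AT at 4 weeks and in S-MT at 12 weeks. *Itgb1* was 3.62-fold, 3.06-fold and 2.97-fold higher there, and *Itgav*, over the cut-off in native tissue, at least 2.60-fold, 2.89-fold and 5.15-fold. In S-AT at 12 weeks *Itgb1* was 5.37-fold lower than native and *Itgav* had no direction. Against ED at 12 weeks, S-MT had 28.1-fold more *Itgav* and 9.64-fold more *Itgb1*, where 22.9% of 83 target genes were higher and 59.0% lower. In that ED group both integrin genes (Ct 33.65 and 30.24) came later than the genomic DNA control well (29.16), and the part of its signal was not tested. In S-MT over S-AT at 12 weeks the folds were 52.0 and 16.0, where 90.9% of 66 target genes were higher.

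Among other matrix genes at 4 weeks, S-MT had 6 of the 9 collagens at least 2-fold above native tissue and S-AT had 5, with 0 lower in both. At 12 weeks 7 of 9 were higher in S-MT, and 0 higher and 6 lower in S-AT. The collagens had a median log2 fold of 5.07 in S-MT over S-AT at 12 weeks, next to the 4.97 of the 4 genes, and of -1.43 in ED from 4 to 12 weeks, next to -2.41. Of 8 genes for proteases and a chaperone that act on matrix, 3 of the 5 with a fold were higher than native in S-MT at 4 weeks and 4 of the 7 with one at 12 weeks. In ED from 4 to 12 weeks 6 of these 8 were higher and 1 lower, near the 67.5% and 16.9% of all target genes. The 3 transforming growth factor beta genes gave 0 higher and 0 lower in S-MT at either time against native. *Tgfb1* and *Tgfb2* were over the cut-off in native tissue, so a lower level could not be called for them. *Tgfb3*, measured in both groups, was 1.998-fold lower at 4 weeks, just inside the limit, and 1.62-fold lower at 12 weeks.

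Genes linked to cells that can make osteopontin moved as well. The 7 linked to macrophages and osteoclasts were *Itgam*, *Ctsk*, *Tnfsf11*, *Csf1*, *Tnf*, *Cd36* and *Mmp9*, a list that includes signalling genes and is not specific to these cells. Of these 7, 6 were within the cut-off in S-MT and 6 in S-AT at 4 weeks, 7 and 5 in the same groups at 12 weeks, and 2 in native tissue. *Itgam* was over it in S-AT at 4 weeks (Ct 35.08). *Ctsk* had the earliest Ct of them in the scaffold groups and *Cd36* in native tissue, so each was the largest term of the sum there. The summed level of these genes was 0.738 in S-MT, 0.644 in S-AT, 0.0565 in ED and 0.0447 in TC at 4 weeks, and 0.160 in native tissue. At 12 weeks it was 1.87 in S-MT, 0.0478 in S-AT, 0.514 in ED and 0.386 in TC. *Spp1* and this sum were thus both high in the scaffold groups at 4 weeks and in S-MT at 12 weeks, but they did not go together in the other groups at 12 weeks. S-AT had a low sum with an *Spp1* level of 2.71, and ED and TC had sums near that of S-AT at 4 weeks, with 7 and 5 of the genes within the cut-off, and the lowest *Spp1* levels of the operated groups, 0.255 and 0.256. In ED and TC at 12 weeks, however, each of these genes had a later Ct than the genomic DNA control well (29.2 in ED, 30.4 in TC). Of 7 osteoblast genes, 1 to 3 were within the cut-off in the scaffold groups, with summed levels from 0.00581 to 0.0353, 0 in ED and TC at 4 weeks, 7 in ED and 4 in TC at 12 weeks. The osteoblast genes of ED and TC at 12 weeks were also later than that well, except *Dlx5* in ED (29.13 against 29.16). The part of the signal of that well in these sums was not tested. The tendon and fibroblast matrix genes summed to 31.8 in S-MT and 1.27 in S-AT at 12 weeks, and to 18.4 and 25.0 at 4 weeks. The part of any of these cells in the levels of the 4 genes was not tested.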

How the data were processed

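RNA was isolated by the authors with phenol and chloroform, reverse transcribed with an RT2 kit and run on a 96-well rat osteogenesis array with SYBR Green. Of the deposited tables, one gives the threshold cycle (Ct) per well and another gives the normalized values that the authors took against *Ldha* and *Rplp1*, with 1 value per gene and group in both. The remaining table holds the authors' own fold changes and a column without a name, and was left out. Tool versions behind the tables: not given in the sources used here. Control wells follow the maker's usual layout.

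Levels and folds were recomputed from Ct (ΔΔCt) in Python 3.11.15 (pandas 2.3.3, numpy 2.4.6, matplotlib 3.10.9). The Ct of target genes was capped at 35, including undetermined wells, and that of housekeeping genes was not. Amplification was taken as 2 per cycle. The limit for a call was 2-fold. A gene capped in both groups gave no fold. The 35 deposited normalized values of the 4 genes all lay within 5% of the recomputed levels, with a largest difference of 0.319%. The arithmetic was checked on simulated data. Neither an error nor a test could be had from 1 value, and precision is limited by the Ct cap.

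The 20 comparisons set each operated group against native tissue, treatments against each other and 12 against 4 weeks. The text names the 4 genes, the 3 target genes closest to each, the housekeeping genes and genes of lists by known function. The genes and lists were chosen with earlier results of these data known. All 84 symbols, and the accessions of the 4 genes, matched RefSeq tables for rat (GRCr8). Alternatives were other reference genes, a Ct cut-off of 33 or none, values within the cut-off only, an amplification of 1.9 and the authors' normalized values. Leaving out S-AT at 12 weeks, or ED and TC at 12 weeks, was added after the data were seen.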

Additional observations from a re-analysis of the deposited data

Results flagged for a closer look

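In S-MT the levels of all 4 genes were higher at 12 than at 4 weeks, and in the other 3 treatments they were lower, with *Ldha* and *Rplp1* as reference. The direction in the others rests on that choice in part. With all 5 housekeeping genes all 4 were higher at 12 weeks in TC (log2 folds of 1.40 for *Spp1*, 0.82 for *Bgn*, 1.13 for *Fn1* and 0.55 for *Anxa5*), so that the differences from S-MT below change sign. The mean of these 5 includes *Hprt1* in TC at 12 weeks at its uncapped Ct of 36.2, over the cut-off. With *Rplp1* alone all 4 in TC were also higher (0.037 for *Anxa5* to 0.89 for *Spp1*), as was *Spp1* in ED (0.14), and with the median of other target genes *Spp1* in S-AT was higher by 2.89. With 1 value per group, the difference between treatments was not tested. The log2 change over time in S-MT minus that in S-AT was 1.30 for *Spp1*, 4.73 for *Fn1*, 5.03 for *Anxa5* and 9.07 for *Bgn*, the last being a lower bound. Against ED it was 2.46 for *Spp1*, 3.91 for *Fn1*, 2.41 for *Anxa5* and 3.55 for *Bgn*. Against TC it was 1.23 for *Spp1*, 1.07 for *Fn1*, 1.65 for *Anxa5* and 1.62 for *Bgn*.

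The genomic DNA control well had an earlier Ct than in native tissue (34.9) by over 1 cycle in 4 groups, at 30.9 in S-MT at 12 weeks, 32.5 in S-AT at 4 weeks, 29.2 in ED at 12 weeks and 30.4 in TC at 12 weeks.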

How the results depend on the processing

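Of 692 values of the 4 genes under other settings, 640 kept their call, which is higher, lower or inside the 2-fold limit. A value that stayed inside the limit counts among these even where its direction turned. This was so for *Spp1*, *Bgn* and *Fn1* in TC from 4 to 12 weeks with *Rplp1* alone. Of the rest, 25 fell inside the limit, 14 passed it, 6 that lay inside it passed it in the opposite direction and 7 called values turned direction. With *Rplp1* alone the log2 fold turned to 0.00099 for *Bgn* in S-MT and 0.14 in S-AT over ED at 4 weeks, 0.14 for *Spp1* in ED and 0.037 for *Anxa5* in TC from 4 to 12 weeks; all 5 housekeeping genes gave 0.55 for the last. The median of other target genes gave -2.61 for *Spp1* in S-MT over S-AT and 0.63 for *Anxa5* in S-AT over ED at 12 weeks. Counts over native higher by 2-fold were 10 of 32 with that median, 10 of 23 with no cut-off and 10 of 23 with values within the cut-off only; the last 2 settings leave out *Spp1* by construction. S-MT against S-AT gave 2 higher and 1 lower with the median. Scaffold groups, ED and TC gave 2 lower with *Rplp1* alone. From 4 to 12 weeks 2 were higher with all 5 housekeeping genes and 1 with the median, and 5 lower with *Rplp1* alone and 5 with all 5. The counts with all 5 rest in part on the uncapped Ct of *Hprt1* in TC at 12 weeks (36.2). Without S-AT at 12 weeks 3 were lower than native, since that group held the others. Of the 12 closest genes 5 were shared without ED and TC at 12 weeks. For the other turns the cause was not tested.

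No paired analysis was possible because each group holds 1 value and shares only replicate number 1. Leaving out each rat in turn was not run, since no values per rat are at hand. *Bgn* in S-AT at 12 weeks gives no value with no cut-off, with values within the cut-off only or from the normalized table. A Ct limit of 35 bounds *Spp1* in native tissue.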

Other observations

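The 6 other adhesion genes were all over the cut-off or undetermined in native tissue, while in ED at 12 weeks all were within it. Against native tissue at 4 weeks 4 had a fold in S-MT, 4 in S-AT, 1 in ED and 0 in TC, none of them measured in both groups, so the cut-off limited any call. At 12 weeks 1 was at least 2-fold higher than native in S-MT and 2 in ED, and 0 in S-AT and TC. In ED at 12 weeks all 6 came later than the genomic DNA control well (29.16), also the 2 called higher, *Icam1* (29.36) and *Itga3* (30.03). The part of that well's signal was not tested. From 4 to 12 weeks, all 4 with a fold in S-AT were lower, beside 75.4% of all target genes, and 5 of 6 in ED were higher, beside 67.5%. Of 5 other genes for non-collagen matrix and mineral (*Comp*, *Bglap*, *Ahsg*, *Alpl* and *Sost*), 3 were higher than native in ED at 12 weeks. These were *Bglap* (Ct 29.22), *Alpl* (30.16) and *Sost* (30.11), all later than the genomic DNA control well of that group (29.16).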
